A study of Drosophila melanogaster with 6 samples.

Results

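SoxNeuro (SoxN), Dichaete (D), Sox21a and Sox21b are the SoxB genes of the fruit fly Drosophila melanogaster, and SNCF (SoxNeuro Co-Factor) encodes a protein identified by its binding to SoxNeuro. These 5 genes were taken by their symbols in the platform annotation. Each was named by 1 probe set, so 5 of the 18769 probe sets tested, and 5 of the 11982 genes named by exactly 1 symbol, are described. Embryos aged 1 to 2 h were profiled on 6 Affymetrix Drosophila Genome 2 arrays. The zld group held 3 samples of embryos from mothers with a germ-line clone mutant for zelda (zld), so that they lacked the normal maternal supply of this zinc finger transcription factor. The yw group held 3 samples labelled as wild type, laid by flies of the yw stock. The labels give neither the zld allele nor the fathers of the clone embryos, so the zygotic copies of zld in these embryos are not known here. The comparison asked which transcripts depend on Zelda while control passes from maternal to zygotic genes.

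Sox proteins bind DNA through an HMG box and bend it. In the fly embryo SoxN and D act in the ventral neuroectoderm, the sheet of cells that gives rise to the nerve cord, where they work side by side and partly replace each other; D is also needed for the segmented pattern of the trunk. SoxN and D act with the factors that divide the neuroectoderm into columns and with the proneural genes, which select neuroblasts. Sox21a is known for driving the differentiation of adult gut progenitors. Zelda binds early gene enhancers and makes their chromatin accessible before the main wave of zygotic transcription.

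All values are deposited array signals on a linear scale, scaled by the authors to a common level. The 95th percentile over 27 control probe sets for Bacillus genes, which have no counterpart in fly RNA, was 18.1 and is used here as the background level. The median signal ran from 16.4 to 18.3 on the zld arrays and from 20.3 to 23.3 on the yw arrays. The targeted zld transcript had signals of 263, 196 and 215 on the zld arrays and 1023, 1062 and 967 on the yw arrays. Maternal RNAs that define early embryos, such as bcd, osk and nanos, were above background on every array for 7 of 7 measured genes. Among markers of differentiated neurons, 0 of 5 were above background on all 6 arrays, and 1 of 5 was within it on all of them. The others exceeded it on some arrays. For elav these included zld replicate 3 (27.4) and yw replicate 2 (38.7), and for fne yw replicates 1 and 2 (29.1 and 29.2).

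The 5 genes had no common direction. SNCF was lower in zld embryos, SoxN and D had overlapping signals, Sox21a was lower on all zld arrays without passing the test, and Sox21b was within background. At an adjusted p under 0.05 (limma on log2(signal + 16), adjusted over all 18769 probe sets), 1 of the 5 was lower, 0 were higher and 4 were not called. Over all probe sets 0.778% were called lower and 0.863% higher. With yw replicates 1 and 2 left out, 0 of the 5 were called, beside 0.229% of all probe sets called lower. The median log2 difference of the 5 genes was -0.01, beside -0.05 for all probe sets tested. This median is the value of Sox21b, which compares readings within background. The other 4 genes were at 0.38 (SoxN), 0.16 (D), -0.43 (Sox21a) and -1.24 (SNCF).

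**Figure D1:**
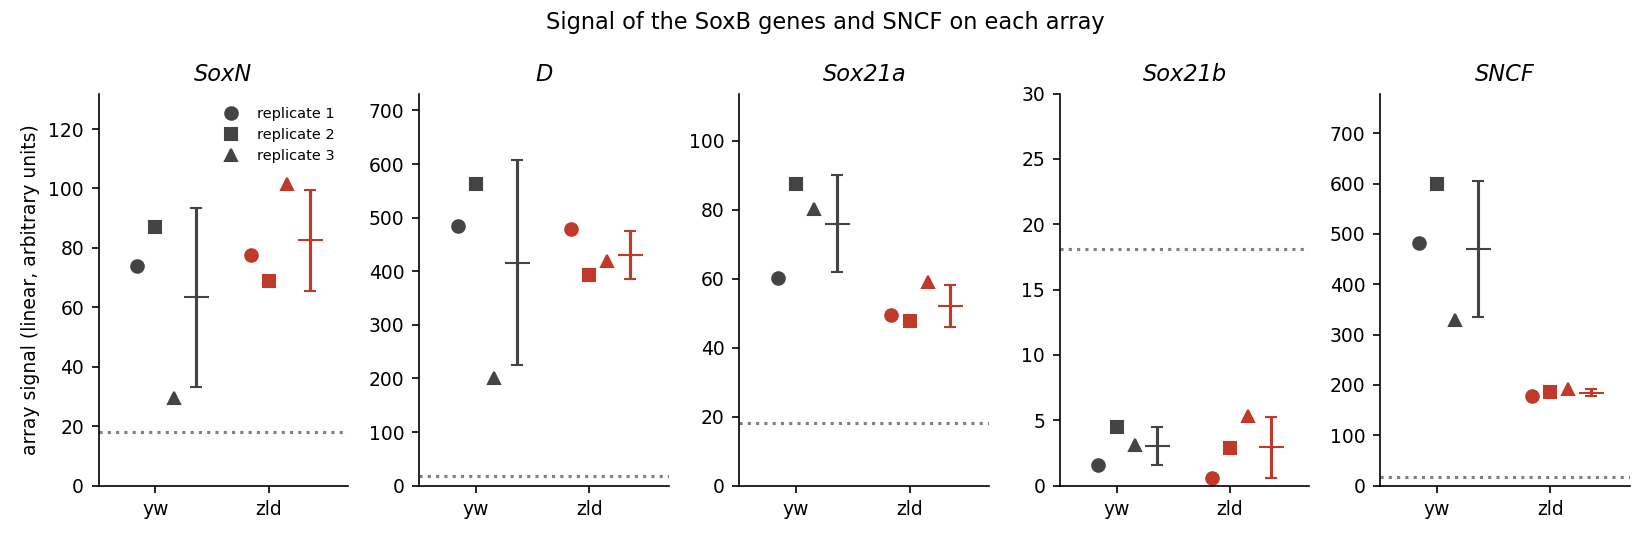
Signal of each gene (linear scale, arbitrary units, axis from 0) on the 3 yw (grey) and 3 zld (red) arrays; bars give the mean and SD of 3 arrays, and the dotted line is the background level of 18.1. SNCF is lower on all zld arrays, while SoxN and D are low on yw replicate 3 alone.

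SNCF was the only member to pass the test. Its signals were 177, 186 and 192 on zld replicates 1, 2 and 3, and 482, 599 and 330 on yw replicates 1, 2 and 3. All zld arrays thus lay below all yw arrays, an order found for 13.6% of all probe sets. The zld arrays were close together, whereas the yw arrays spread over a 1.82-fold range. The mean was 185 ± 7.47 (SD, n = 3 arrays) in zld and 470.3 ± 135 (SD, n = 3) in yw embryos, a 2.54-fold lower signal without maternal zld. On the log2(signal + 16) scale SNCF fell by 1.24 (SE 0.189, 95% interval -1.67 to -0.80, adjusted p = 0.0204, limma). The SNCF transcript remained well above background on every zld array. In bulk embryos, fewer expressing cells and less RNA per cell cannot be told apart.

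The size of this fall depended on which yw array was the reference. Against yw replicate 1 the zld mean of SNCF was lower by a log2 difference of -1.31, against replicate 2 by -1.61 and against replicate 3 by -0.78. With yw replicates 1 and 2 left out together, only yw replicate 3 remained in that group, so the difference was again -0.78. The call of SNCF ended in limma without zld replicate 1, 2 or 3 (adjusted p = 0.0961, 0.081 and 0.107) and without yw replicate 1 (adjusted p = 0.0512). It also ended in the methods' t-test (adjusted p = 0.2). Over 16 alternatives the adjusted p ran from 0.00332 to 0.2, and the difference from -1.46 to -0.78, with the same direction in each of them.

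Muscle and extracellular matrix genes of later embryos also stood high on yw replicates 1 and 2. The summed signal of 8 such genes (Mlc1, Mlc2, Tm2, up, vkg, Col4a1, LanA and SPARC) was 425 and 648 on these arrays, 157 on yw replicate 3 and between 96.8 and 126 on the zld arrays. None of the 8 passed the test (0 lower and 0 higher in limma, 7 lower at an unadjusted p under 0.05, 0 in the methods' t-test). Of these genes 2 were above background on all 6 arrays. SNCF shared their order within the yw group, highest on replicate 2 and lowest on replicate 3, and the part of this in the SNCF difference was not tested.

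D, which also helps to shape the pair-rule stripes, was not called in either direction. It had signals of 479, 393 and 419.6 on the zld arrays, against 485, 563 and 201 on the yw arrays. The zld values lay between those of yw replicate 3 and those of yw replicates 1 and 2, so the groups overlapped. Group means were 431 ± 44.3 in zld and 416 ± 191 in yw embryos (SD, n = 3 each). The log2 difference was 0.16 (SE 0.325, 95% interval -0.58 to 0.91, adjusted p = 0.843, limma), and the interval reaches from a 1.5-fold lower to a 1.88-fold higher signal in zld embryos. Without yw replicate 3 the sign turned, to -0.27 (adjusted p = 0.351, limma). Without yw replicates 1 and 2 together the difference was 1.04, a value that rests on yw replicate 3 alone in that group.

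SoxN behaved much like D across the arrays. Its signals were 77.6, 68.7 and 102 on the zld arrays and 73.8, 86.9 and 29.4 on the yw arrays. Again the low value was that of yw replicate 3, and the other yw arrays fell within the zld range. The means were 82.6 ± 17 in zld and 63.4 ± 30.1 in yw embryos (SD, n = 3 each), with a log2 difference of 0.38 (SE 0.304, 95% interval -0.32 to 1.08, adjusted p = 0.588, limma). The interval reaches from a 1.24-fold lower to a 2.12-fold higher signal in zld embryos. Without yw replicate 3 the difference was 0.02 (adjusted p = 0.969, limma). Without yw replicates 1 and 2 the difference was 1.11, which again rests on yw replicate 3 alone in that group.

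The yw arrays spread widely for D and SoxN; probe sets matched in brightness were not compared. Among 7021 probe sets with a mean signal above 50 in either group, the median range over the yw arrays was 0.29 on the log2(signal + 16) scale. The range of D was 1.42 and that of SoxN 1.18, and 1.27% and 2.02% of these probe sets had a range as large or larger. For SNCF the yw range was 0.83, reached by 5.73% of them, and for Sox21a it was 0.44, reached by 25.2%. On the zld arrays the median range over the same probe sets was 0.23. The range of SoxN there was 0.47, reached by 12.5% of them, that of D was 0.28 and that of SNCF 0.11. Yw replicate 3 was the lowest of all 6 arrays by at least 1.5-fold for 55 of the 7021 probe sets (0.783%), D and SoxN among them; for the other arrays this count ran from 22 to 155.

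Sox21a had modest signals that were lower in zld embryos. They were 49.4, 47.7 and 59 on the zld arrays and 60.3, 87.5 and 80.3 on the yw arrays. The groups did not overlap, though zld replicate 3 and yw replicate 1 were almost level. The means were 52 ± 6.09 in zld and 76 ± 14.1 in yw embryos (SD, n = 3 each), and the log2 difference was -0.43 (SE 0.173, 95% interval -0.83 to -0.03). Its unadjusted p was 0.0381, and after adjustment over all probe sets it did not pass (adjusted p = 0.29, limma). The value stayed negative over 16 alternatives, from -0.56 to -0.27, and passed in 0 of them. It was -0.51 without yw replicates 1 and 2, so for Sox21a the difference was not smaller against yw replicate 3.

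Sox21b was not measurable above background in either group. Its signals were 0.6, 2.9 and 5.3 on the zld arrays and 1.6, 4.5 and 3.1 on the yw arrays, all below 18.1. The log2 difference of -0.01 (SE 0.101, adjusted p = 0.959, limma) therefore compares background readings, and its sign changed with the scaling (0.03 under quantile normalization and 0.14 under median centring).

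**Figure D2:**
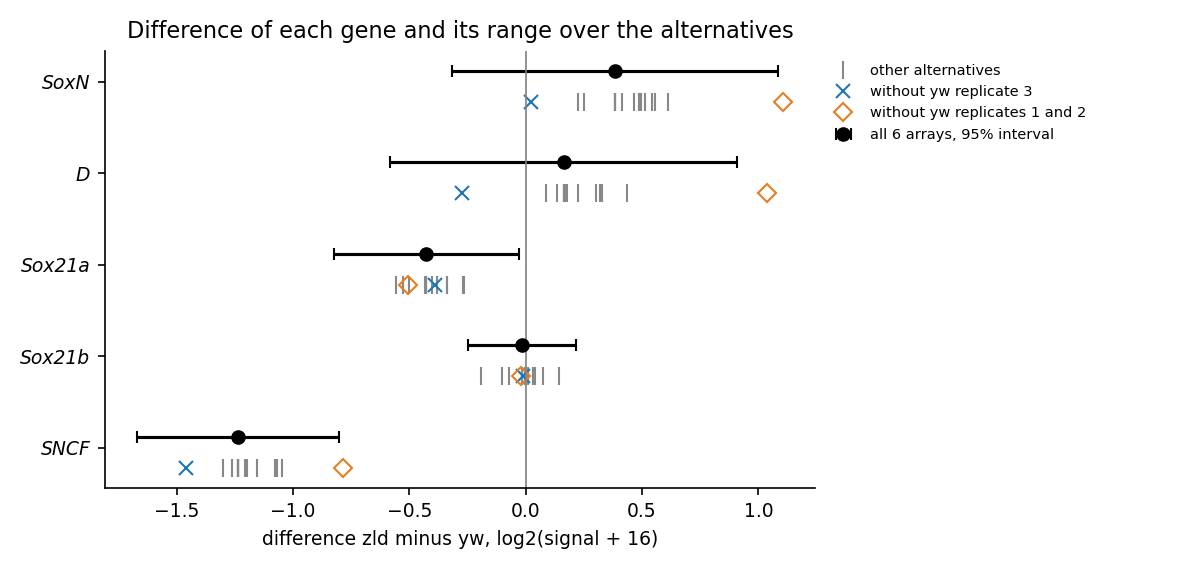
Difference between groups for each gene, zld minus yw on the log2(signal + 16) scale: black points are all 6 arrays with 95% intervals from limma, and the marks under them are the alternatives. The intervals of SNCF, from -1.67 to -0.80, and of Sox21a, from -0.83 to -0.03, exclude 0. They are not adjusted for the number of probe sets, and only SNCF passed after adjustment. D lies at -0.27 without yw replicate 3 and at 1.04 without yw replicates 1 and 2.

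Ratios between members were taken within each array, on signal + 16, so that a factor scaling a whole array cancels only in part for dim members. The 4 ratios below were chosen after the signals were seen. The log2 ratio of SNCF to D, each as signal + 16, was -1.36, -1.02 and -1.07 on the zld arrays and -0.01, 0.09 and 0.67 on the yw arrays. The groups were separate, and the ratio differed by -1.40 between them. For SNCF to SoxN the ratio differed by -1.62 (-1.80 with an offset of 1 and -1.30 with an offset of 64), with zld values of 1.05, 1.25 and 0.83 and yw values from 2.47 to 2.93. For SNCF to Sox21a the difference was -0.81, with zld values from 1.47 to 1.66 and yw values from 1.85 to 2.71. Each of these 3 ratios gave p = 0.1 in a two-sided exact permutation test (adjusted p = 0.133 over the 4 ratios), and 0.1 is the smallest p that 3 arrays against 3 allow. Without yw replicates 1 and 2 the differences were -1.82 against D, -1.89 against SoxN and -0.28 against Sox21a. Against yw replicate 3 alone, SNCF itself was at -0.78, while D was at 1.04 and SoxN at 1.11, so over these arrays the ratios to D and SoxN also carry the low signals of D and SoxN on that array.

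The ratio of D to SoxN did not separate the groups. It was 2.40, 2.27 and 1.89 on the zld arrays and 2.48, 2.49 and 2.26 on the yw arrays. The groups overlapped, with a difference of -0.22 (exact permutation p = 0.3, also 0.3 after adjustment).

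The genes whose profile over the 6 arrays was most like that of a member were found by the root mean square difference of mean-centred log2(signal + 16) values. They were chosen on these same arrays, so for every member the shared shapes and differences below follow from the choice. They are no separate support for the pattern of a member. For D these were CG42394, dan and CG32280, at 0.115, 0.116 and 0.161. For SoxN they were CG32280, Adgf-A and CG42394, at 0.135, 0.169 and 0.177, so CG42394 and CG32280 came up for both genes. The gene dan (distal antenna), which encodes a nuclear protein of head and neural development, had signals of 121, 108 and 112 on the zld arrays and 123, 183 and 55 on the yw arrays. Adgf-A, which encodes a secreted adenosine deaminase, had 45, 44.6 and 64 on the zld and 38.3, 35.2 and 13.6 on the yw arrays. Like D and SoxN, these genes were lowest on yw replicate 3. None of the 4 was called, with adjusted p from 0.338 to 0.957 (limma), and CG42394, dan and CG32280 turned from a positive to a negative difference without yw replicate 3.

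For SNCF the most alike were CG14427, btsz and phyl, at 0.107, 0.113 and 0.139. The gene btsz (bitesize) encodes a synaptotagmin-like protein of the apical cell border, and phyl (phyllopod) an adaptor for protein degradation in sensory organ and eye development. Signals of btsz were 25.7, 23.3 and 25.2 on the zld arrays and 80.7, 133 and 59.6 on the yw arrays, a log2 difference of -1.34 (adjusted p = 0.0471, limma). CG14427 was at -1.06 (adjusted p = 0.0446) and phyl at -1.04 (adjusted p = 0.108). The calls of btsz and CG14427 ended when any zld array, or yw replicate 1 or 2, was left out, and also with an offset of 64, without a trend, with the replicate number as a block and in the methods' t-test. For Sox21a the most alike were Prosap, CG7985 and Tango5, at 0.0561, 0.0758 and 0.0816; all 3 were lower on all zld arrays and none was called (adjusted p from 0.151 to 0.266). Sox21b was too dim for this comparison.

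**Figure D3:**
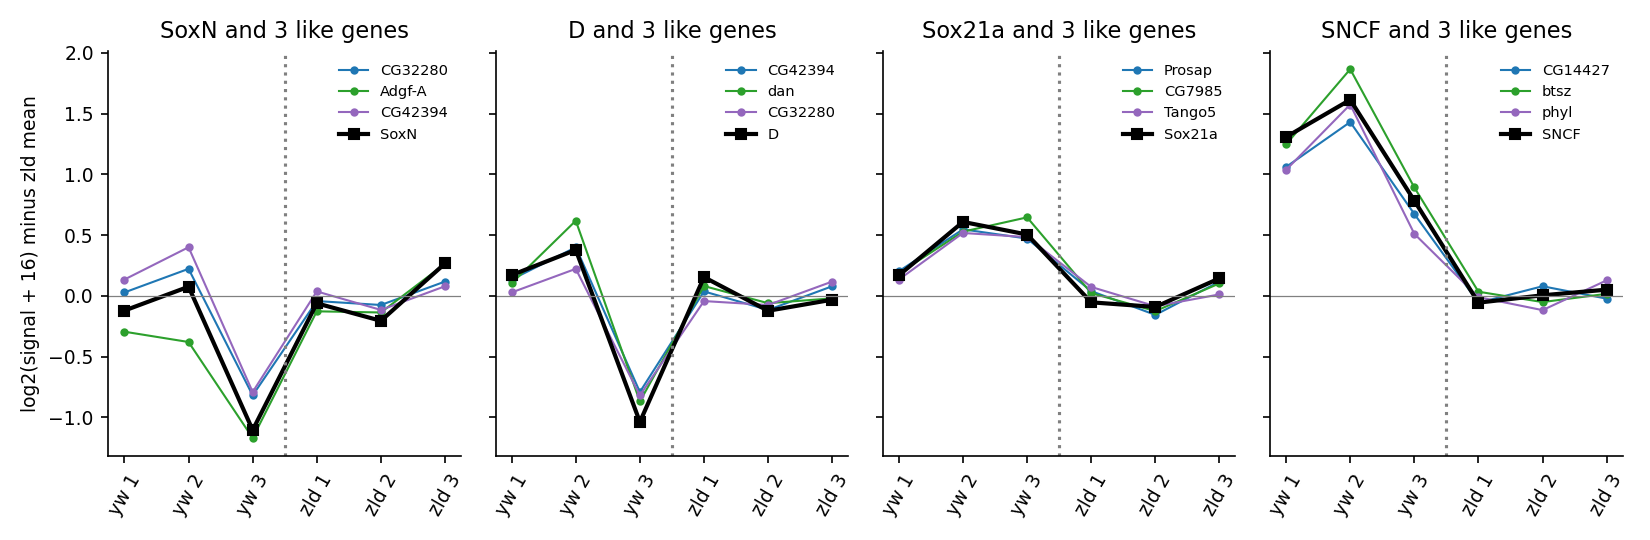
Profiles of 4 members (black) and of the 3 genes most like each (coloured), as log2(signal + 16) minus the mean of the zld arrays, by array; lines only join the points of a gene. SoxN and D drop on yw replicate 3 together with their like genes, and SNCF and its like genes are above the zld arrays on every yw array. The like genes were chosen for their closeness to the member on these same arrays, so the shared shapes follow from the choice.

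Sox21a, Sox21b and D lie next to one another on chromosome arm 3L in the RefSeq annotation, with a long noncoding RNA gene between Sox21b and D, and SNCF lies elsewhere on 3L. Sox21b was within background on every array, while Sox21a and D, its neighbours, were above background on all of them. Outside them, the next genes with a named probe set were Fbp1, which encodes a receptor for larval serum protein, and nan, which encodes a TRP channel subunit of hearing neurons. Both were under background on all arrays. The nearest genes with a named probe set on either side of SoxN on arm 2L were CG42710 and CG32986, the latter with 2 annotated genes between. They were near or under background, with signals of 2.3 to 11.3 for CG42710 and a log2 difference of -0.19 (adjusted p = 0.646, limma) for CG32986.

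SNCF lies inside the annotated span of CG14111, and an antisense RNA gene overlaps it too, and signals of overlapping transcripts cannot be told apart with the annotation used here. The probe set of CG14111 had signals of 38.2, 32.8 and 32.1 on the zld arrays and 60.6, 81.7 and 50.5 on the yw arrays. It was lower on all zld arrays but not called (log2 difference -0.66, SE 0.196, adjusted p = 0.161, limma). On one side of these genes lies Nplp2, a gene for a secreted peptide, with 18.2, 33.5 and 28.1 on the zld arrays and 122, 178 and 37.5 on the yw arrays. Its log2 difference of -1.42 was not called (adjusted p = 0.167) and was -0.35 without yw replicates 1 and 2; without yw replicate 3 it was -1.96 and passed (adjusted p = 0.0144). On the other side CG14107 had signals of 2.8 to 31.9 and a log2 difference of -0.57 (adjusted p = 0.358).

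The other Sox genes of the fly, 4 in all, were dim, and 0 were called in either direction (limma; 1 higher at an unadjusted p under 0.05, 0 in the methods' t-test). Sox100B, a gene of the male gonad, was within background on all arrays. Sox14, a gene of the response to the moulting hormone ecdysone, and Sox15 had signals from 7.4 to 35.3. Sox102F was higher on all zld arrays, an order found for 8.11% of probe sets, with 56.1, 29.5 and 44.5 against 23.6, 12.1 and 26.7 on the yw arrays. Its log2 difference was 0.69 (SE 0.255, adjusted p = 0.254, limma). The median of this list was -0.08.

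Among other HMG box genes 0 of 5 measured were called (limma; before adjustment 2 were lower and 1 was higher at 0.05, and 0 in the methods' t-test), and their median was 0.06. The largest difference was that of tHMG2, at -0.46 (adjusted p = 0.302), within background on every array. Cic (capicua), a repressor loaded maternally, had a log2 difference of -0.29 (adjusted p = 0.303) and TFAM, which encodes a mitochondrial DNA-binding protein, 0.29 (adjusted p = 0.125).

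Of the column genes and partner factors of the SoxB proteins, 6 were measured and 0 were called (limma; 1 lower at an unadjusted p under 0.05, 0 in the methods' t-test). The intermediate column gene ind, the dorsal column gene Dr, the POU factor gene vvl, a partner of D in the midline, and sli, a midline gene that both control, had signals of 1.5 to 39.1. Egfr, the receptor that patterns the columns, had 30.9, 21.8 and 27.5 on the zld arrays and 52.1, 100.2 and 40.5 on the yw arrays. Its log2 difference was -0.85 (SE 0.281, adjusted p = 0.204), and -0.41 without yw replicates 1 and 2. The list's median was -0.20, and 0.13 without yw replicates 1 and 2. All 6 genes were lowest, within the yw group, on replicate 3 and highest on replicate 2. Among the 7021 brighter probe sets the shares were 30.8% and 30.5%. Of this list only Egfr is bright enough to be among them, so these shares are no like reference for its other genes. Only 2 of the 6 genes were above background on all 6 arrays, so these orders and medians include readings near or under background.

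Of the proneural and neuroblast genes, 3 of 9 were called lower and 0 higher, beside 0.778% and 0.863% of all probe sets. All zld arrays lay below all yw arrays for 8 of 9, an order found for 13.6% of all probe sets. Only 5 of the 9 were above background on all 6 arrays. The genes ac, ase, wor and nerfin-1 read under 18.1 on every zld array. The called genes were ac, sc and l(1)sc of the achaete-scute complex, at -2.03, -1.87 and -1.94. In the methods' t-test 0 of 9 were called, with adjusted p of 0.105 for ac, 0.0836 for sc and 0.0909 for l(1)sc. Without yw replicates 1 and 2, so against yw replicate 3 alone, the differences were -1.97 for ac, -1.93 for sc and -1.86 for l(1)sc. The other 6 were not called: dpn, a neuroblast repressor, was at -1.22 (adjusted p = 0.0792), mira, which carries fate determinants in dividing neuroblasts, at -0.74 (adjusted p = 0.263), and insc, which orients their spindle, at -0.67 (adjusted p = 0.117). Signals of dpn were 119, 117 and 119.5 on the zld arrays and 273, 488 and 195 on the yw arrays. The median of the list was -0.74, and -0.56 without yw replicates 1 and 2. The difference between this list and the SoxB genes was not tested.

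In the segmentation genes tied to D, 4 of 12 were called lower and 0 higher, beside 0.778% and 0.863% of all probe sets. The median of the list was -0.35. All zld arrays lay below all yw arrays for 4 of 12, an order found for 13.6% of all probe sets. The called genes were hry, tll, ftz and eve, at -1.36, -1.01, -0.98 and -0.89. All 4 calls ended in the methods' t-test (0 of 12 called), with the replicate number as a block and without any 1 of the zld arrays. Without yw replicates 1 and 2, so against yw replicate 3 alone, hry, tll, ftz and eve were at -0.915, -0.70, -0.84 and -0.75. The median of the list was then -0.11. The others included Kr and kni, gap genes that shape the trunk, with log2 differences of -0.42 and -0.29 and overlapping groups. The pair-rule gene odd had signals of 56.3, 58.9 and 65.5 on the zld arrays and 84.6, 132 and 37.8 on the yw arrays, with the zld arrays between yw replicate 3 and the other yw arrays, as for D. Of the 12 genes, 9 were lowest within the yw group on replicate 3 and 9 were highest on replicate 2. Of the 4 members above background, SoxN, D, Sox21a and SNCF, 3 were lowest within the yw group on replicate 3 and 4 highest on replicate 2; among the 7021 brighter probe sets the shares were 30.8% and 30.5%.

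In the Wingless and ventral epidermis list 2 genes were measured and 0 called (limma; 0 at an unadjusted p under 0.05, 0 in the methods' t-test), with a median of -0.05. These were en, a segment polarity gene, at -0.25 (adjusted p = 0.679) with signals of 12.1 to 39.6, and ovo, which is also maternal, at 0.14 (adjusted p = 0.699).

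**Figure D4:**
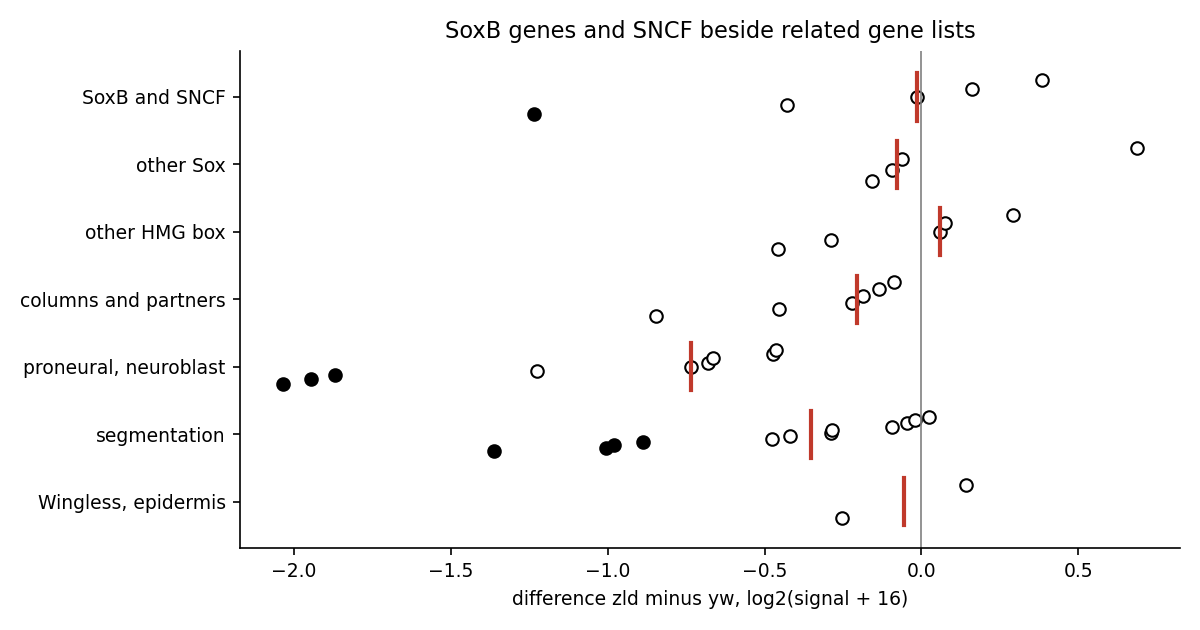
Difference zld minus yw on the log2(signal + 16) scale for the SoxB genes and SNCF and for 6 gene lists; each circle is a gene, filled where the adjusted p is under 0.05, and red bars are list medians. The filled circles are SNCF, 3 proneural genes and 4 segmentation genes, all lower in zld embryos.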

How the data were processed

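Total RNA was isolated with TRIzol and biotin-labelled for Affymetrix arrays, and scans were normalized in GeneChip Operating Software (version not given in the sources used here), per the labels' protocols. Deposited were linear array intensity signals, 1 per probe set and array; the authors scaled them, since the trimmed mean of each array was 150.0, and there are no detection calls. The sample protocols speak of duplicate collections and the series text of 3 biological replicates; if some arrays share a collection, the p-values measure only the spread between these samples.

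The 183 control probe sets were left out. The test was limma 3.58.1 under R 4.3.3 (eBayes with a trend), run on log2(signal + 16) over 18769 probe sets and all 6 arrays, with group as the only term and Benjamini-Hochberg adjustment, called at an adjusted p under 0.05. The offset of 16 makes differences of dim genes too small. The fit was checked on simulated data with independent noise on each array, so that check does not cover a pattern shared by probe sets within the yw group. Gene names came from the platform annotation, brought up to date by gene ID with RefSeq assembly GCF_000001215.4, and the brightest probe set stood for a gene of a list. Named genes were all members, the 3 genes most like each, called members of each list (up to 4, or the largest difference), and neighbours; others named, among them dpn, mira, insc, odd, Kr, kni, cic, TFAM and the muscle genes, were chosen after their values were seen. The members and lists were chosen with earlier results of these data known. Same-numbered arrays of the groups share only a number in the labels, so no block was used in the main fit. Their deviations from the group means correlated at 0.147, -0.00154 and -0.0349. No sequences were used here. Figures were made with Python 3.11.15 and matplotlib 3.10.9. Precision is limited by there being 3 arrays per group.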

Additional observations from a re-analysis of the deposited data

How the results depend on the processing

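SoxN, D, Sox21a and Sox21b passed the threshold in none of the alternatives run (offsets of 1 and 64, quantile normalization, median centring, dim probe sets left out, no trend, the methods' t-test, the replicate block, array weights, each array left out, and yw replicates 1 and 2 left out together), and Sox21b had no value with dim probe sets left out. SNCF passed in 10 of 16; it was -1.24 (adjusted p = 0.2) in the methods' t-test and -0.78 without yw replicates 1 and 2, and leaving out 1 array gave -1.46 to -1.05. With the replicate number as a block SNCF was at -1.24 (adjusted p = 0.0463), and that block gave 76 lower and 75 higher probe sets in place of 146 and 162; the numbers pair no samples by the labels, and not every sample correlated best with its own number. Leaving out 1 array gave 0.02 to 0.61 for SoxN, -0.27 to 0.43 for D, -0.56 to -0.34 for Sox21a and -0.10 to 0.0764 for Sox21b, so the signs of D (-0.27 without yw replicate 3) and Sox21b (0.0764 without zld replicate 1, 0.0389 without yw replicate 2) turned; Sox21b also turned with quantile normalization (0.0315), median centring (0.14) and array weights (0.0118). Counts of lower and higher probe sets were 264 and 327 with dim probe sets left out (9386 tested, so a lighter adjustment), 0 and 2 in the methods' t-test, 43 and 51 without yw replicates 1 and 2, 45 to 213 and 35 to 227 with 1 array left out, and 552 higher with median centring, against 127 lower. Among other genes, leaving out 1 array gave -0.13 to 0.40 for CG32280, -0.27 to 0.33 for CG42394, -0.36 to 0.38 for dan, -0.15 to 0.0161 for nan and -0.44 to 0.0283 for en, the sign turning without yw replicate 3 (for en, replicate 2); it also turned for nan with quantile normalization (0.0327) and median centring (0.11), and without yw replicates 1 and 2 for en (0.12) and CG42710 (0.0396); the cause was not tested. Since each member has 1 probe set, the mean over probe sets could not differ, and the promoter motif search was not run. Signals under about 18.1 cannot be told from background.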

Other observations

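Ovary and adult genes were dim or unremarkable in both groups: of 4 genes of follicle cells and 3 yolk protein genes, 0 were called in limma (0 at an unadjusted p under 0.05, 0 in the methods' t-test). Of 7 measured maternal RNAs 0 were called (2 higher at an unadjusted p under 0.05, 0 in the methods' t-test), with vas at 0.79 (adjusted p = 0.06) and exu at 0.65 (adjusted p = 0.099), both higher on all zld arrays. Their summed signal ran from 7624 to 8941 on the zld arrays and from 6941 to 8320.4 on the yw arrays, highest on replicate 3 in each group. The order of the yw arrays was therefore not the same in the maternal RNAs as in D, SoxN and SNCF, for which replicate 3 was lowest. Of the 7021 brighter probe sets, 128 were highest on yw replicate 2 by at least 1.5-fold over all other arrays, against 0 to 19 for each other array.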
